A study of Mus musculus with 20 samples.

Results

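The annulus fibrosus (AF) of ank mutant and wild-type (WT) mice was compared on 10 of the 20 arrays of the series, 5 from ank mice and 5 from WT mice, chosen by the tissue and genotype in their labels. The other 10 arrays hold the nucleus pulposus (NP) of the same mice. All mice were littermates, 13 weeks old, bred from heterozygous parents of the C3FeB6 stock that carries the ank allele, with 2 males and 3 females in each genotype. The ank mice were homozygous (ank/ank), so that every cell of the body carried the mutation, and effects that arise in the AF and elsewhere cannot be told apart. Each array held the pooled discs of 1 mouse. The sample labels name caudal and lumbar discs, whereas the study's methods name caudal discs only. Animals are given by genotype and number, as WT 32, 33, 53, 55 and 59 and ank 31, 34, 39, 41 and 48, and each is a separate mouse. The comparison asks how AF transcription differs without ANK function. Ank itself is not analysed here.

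The AF is the ring of collagen lamellae that surrounds the gelatinous NP, and its outer fibres anchor in the vertebral bone next to ligament and muscle. ANK carries pyrophosphate, or the ATP from which it is made, out of the cell, and extracellular pyrophosphate holds back the growth of apatite crystals. Mice without it mineralise joints and discs. A dissected AF can bring along NP cells from within and bone, cartilage endplate or muscle from without, and its RNA is then a blend. In such bulk samples fewer cells of a type and less RNA per cell cannot be told apart.

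Signals were deposited on the log2 scale, so a difference of 1 is a doubling, and every level and difference below is on that scale unless called a fold. The background of each array was set at the 95th percentile of its 1425 receptor genes for odours, pheromones and trace amines, which the disc is not known to use. Of 19505 genes, 4077 lay above it in 5 or more AF arrays and were tested. A gene passed the thresholds of the study when its unadjusted limma p was under 0.05 and its fold at least 1.75. An exact p, given for single genes, comes from a two-sided permutation test of that gene's difference over all 252 labellings of the mice (70 for 8 arrays). It is not adjusted, cannot go below 0.00794 (0.0286 for 8 arrays), and exceeds 0.05 for several genes that passed. The highest signals reach a ceiling of 19.9315. Sparc lay within 0.05 of it in 10 of 10 AF arrays and Car3 and Acan in 8, and there a difference is only a lower bound.

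The arrays differed in how much could be seen on them. The number of genes above background ran from 1781 in ank 31 to 6362 in WT 33, and from 2831 to 6120 in the other 8. The separation of positive from negative control probe sets, an area under the curve (AUC) of 0.5 at no separation, ran from 0.591 in ank 31 to 0.763 in WT 33. The poly-A spike controls, RNA added before labelling, averaged 8.52 to 10.1 in the 4 AF arrays of animals 31 to 34 and 3.24 to 3.67 in the 6 of animals 39 to 59, and both sets held both genotypes in equal number. Over the genes tested, only ank 34, 39, 41 and 48 had a higher mean correlation with their own genotype (0.797 to 0.847) than with the other (0.765 to 0.830). Ank 31 correlated at 0.747 with the WT arrays on average and at 0.674 with the other ank arrays. WT 33 stood apart from both genotypes, at 0.663 and 0.678.

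Defining AF and NP genes matched the label of the tissue, with a varying share of neighbours. The mean of 17 AF and tendon genes was 9.44 to 12.4 in the AF arrays and 7.21 to 8.23 in the NP arrays. The mean of 11 NP and notochord genes was 7.92 to 11.8 in the AF arrays against 12.6 to 13.0 in the NP arrays. Within the AF, this NP mean was 9.56, 7.92, 10.4, 10.5 and 10.95 in WT 32, 33, 53, 55 and 59, and 8.88, 11.2, 10.2, 11.6 and 11.8 in ank 31, 34, 39, 41 and 48. The genotypes overlapped, although the 3 highest arrays were all ank. The tendon regulators Scx and Mkx and the collagen Col14a1 were not above background in any AF array.

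WT 33 carried RNA of muscle and bone. The mean of 24 skeletal muscle genes was 12.3 in WT 33 against 5.66 to 7.01 in the other 9 arrays, and 23 of the 24 were above background there. The mean of 12 osteoblast and osteocyte genes was 12.2 against 5.87 to 7.63. That of 8 osteoclast genes was 12.3 against 5.03 to 6.39, and that of 6 genes of hypertrophic chondrocytes was 14.8 against 6.64 to 9.60. Smaller excesses appeared in the macrophage (8.18), endothelium (7.62) and adipocyte (8.16) lists, each the highest of the 10 arrays. Its NP list was the lowest.

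Named genes showed the size of this excess. Myh2, a fast myosin heavy chain, was at 18.82 in WT 33 and at most 6.82 elsewhere. Acta1, skeletal muscle actin, was at 18.23 against at most 8.92. The osteoclast enzymes Acp5 (19.09) and Mmp9 (18.62) lay far above the next array, which was at 9.34 and 6.98, and the collagenase Mmp13 was at 19.23 against 10.58. In all, 195 genes exceeded every other AF array by more than 3 in WT 33, whereas no other array had more than 2 such genes. Among the other 9, ank 41 had the most muscle genes above background, 14 of 24, and Acp5 was at 9.34 in it.

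**Figure D1:**
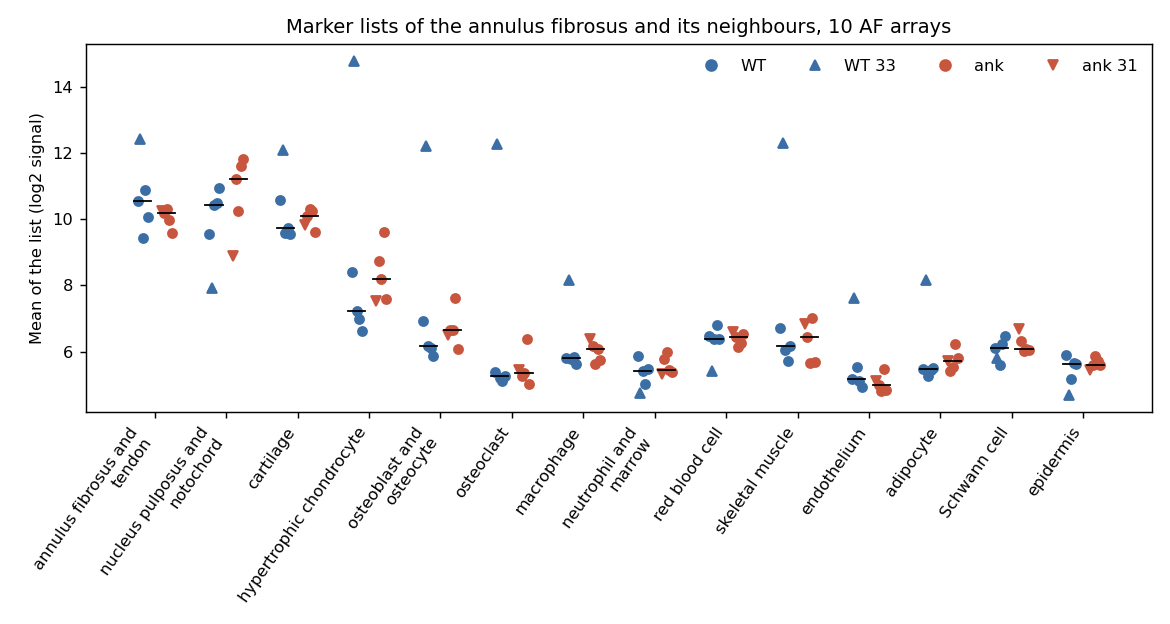
Mean log2 signal (vertical axis) of each tissue list (along the horizontal axis) in each AF array (points), by genotype, with black bars at the median of each group, WT 33 as an upward and ank 31 as a downward triangle. WT 33 lies near 12 for muscle, osteoblast and osteoclast genes, where the other 9 arrays stay below 8, and has the lowest NP mean.

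Over all 10 arrays, 145 genes were higher in ank at the thresholds (3.56% of those tested) and 6 were lower (0.147%). No gene reached an adjusted p under 0.05 (0% of those tested). In the limma fit 154 had an unadjusted p under 0.05, fewer than this cut-off would let through on average if no gene differed. The smallest adjusted p was 0.946. The median difference over all genes tested was 0.28 and 72.4% of them were positive. The split of the calls moved with this shift. With every array centred on its median, 90 genes were higher and 44 lower (67.2% higher instead of 96.0%), and after quantile normalization 86 were higher and 41 lower. Centring moved the median difference to 0.02. The shift and the split also depended on the background filter. With no filter the median difference over 19505 genes was 0.0008, and 70.5% of the calls were higher.

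Few genes separated the arrays completely. The lowest ank array exceeded the highest WT array in 12 genes (0.294% of those tested), and the reverse held in 2 (0.0491%). With genotype labels at random, each gene separates completely, in either direction, with a probability of 0.00794. Both shares together lie below it, so separation alone does not mark a genotype effect. Sgk1, the serum and glucocorticoid regulated kinase, left the widest gap among the separated genes, 0.54. Chst3, Eif3m, Zfp960, Dusp14, Rbm17 and Erf, which are described further on, were also in this group, as was Znrf2 with a difference of 1.19. Of the 5 ank arrays, ank 41 or ank 48 held the highest value in 115 of the 145 higher genes (79.3%) and in 58.9% of all genes tested. Ank 31 held the lowest value in 109 of the 145 (75.2%) and in 54.9% of all genes tested.

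Single arrays decided most calls. Leaving out ank 31 raised the higher genes from 145 to 603 and the lower from 6 to 15, and leaving out WT 33 gave 307 and 11. Without ank 48 there were 61 and 3, without ank 41 there were 63 and 4, and without WT 53 there were 70 and 10. In the other 5 fits 99 to 152 genes were higher. Of the 145 higher genes, 36 passed the thresholds in all 10 of these fits, whereas 0 of the 6 lower genes did. Of the lower genes, Axl and Tasor came closest, with 8 of 10 fits.

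**Figure D2:**
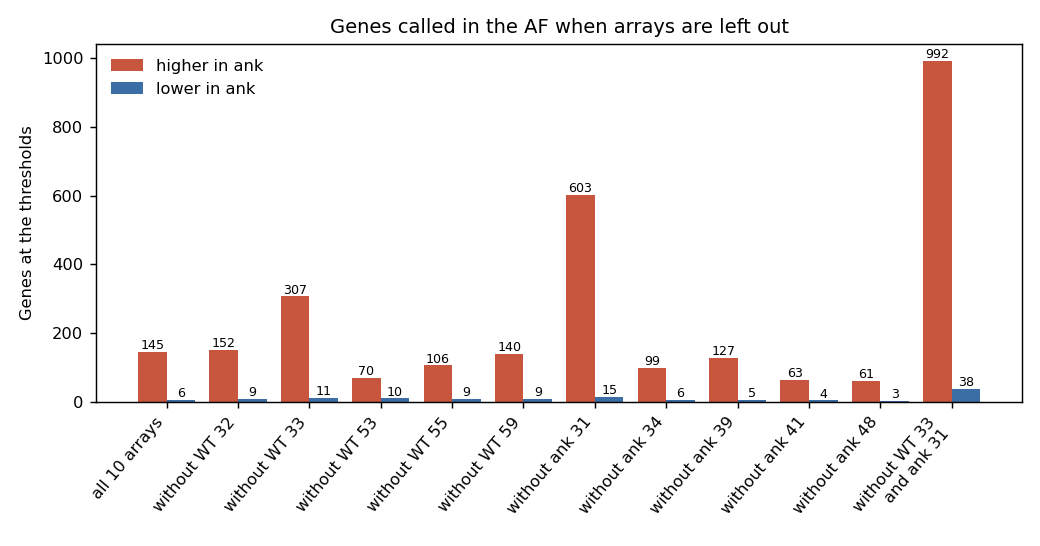
Number of genes higher and lower in ank at the thresholds (bars, with the count on each), with all 10 AF arrays, after leaving out each in turn, and without WT 33 and ank 31 together. The higher genes run from 61 without ank 48 to 603 without ank 31, and reach 992 without both WT 33 and ank 31.

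Without both WT 33 and ank 31, 992 genes were higher (24.3% of those tested) and 38 lower (0.932%), of which 135 and 3 were among the 145 and the 6. Still no gene had an adjusted p under 0.05, and the smallest was 0.0760, for Cirbp. The median difference grew to 0.58. With the 8 arrays centred, 407 and 262 passed; all 407 were among the 992 and all 38 were among the 262. The arrays left out did not follow these calls. WT 33 lay on the WT side of the midpoint in 33.3% of the 992 genes, against 35.8% of all genes tested. Ank 31 lay on the ank side in 7.56% of them, against 23.7% of all genes. Of the 38 lower genes, WT 33 was on its own side in 9 and ank 31 in 7.

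Arrays held out one at a time gave the same kind of measure for every animal. The genes passing in a fit of 9 arrays were looked up in the tenth. Ank 48 lay on the ank side in 82.8% of them (63.9% of all genes), ank 41 in 73.1% (60.9%) and WT 53 on the WT side in 73.8% (59.1%). In the other 7 arrays the share was below the one for all genes. This count depended on the scale: the share was above the one for all genes in 3 arrays as deposited, in 5 after centring (with ank 34 and 39) and in 6 after quantile normalization (with ank 34 and 39 and WT 55). As deposited, WT 32, 55 and 59 and ank 34 and 39 lay between 43.0% and 58.1%, WT 33 was at 20.4% and ank 31 at 4.37%.

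**Figure D3:**
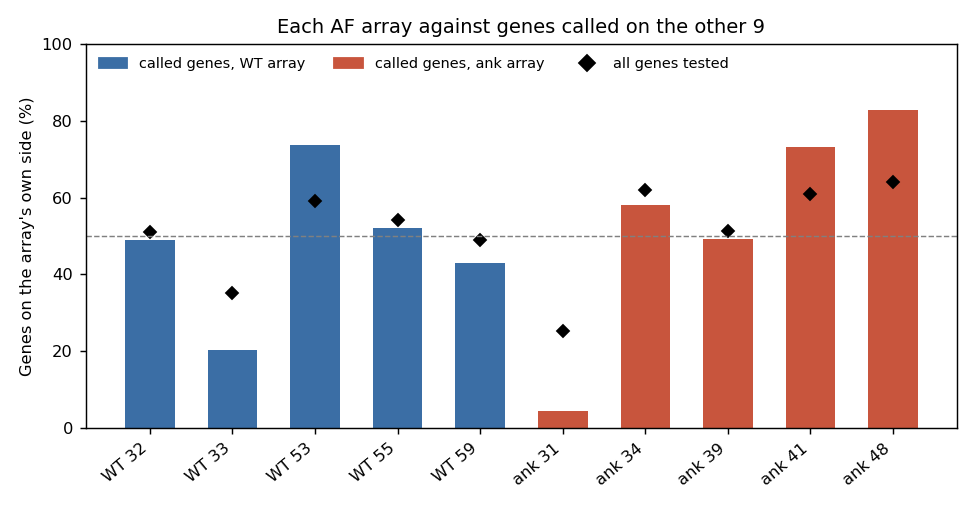
Percentage of genes on the side of the array's own genotype in each held-out AF array, for the genes that passed in the other 9 arrays (bars) and for all genes tested (diamonds), with a dashed line at 50%, on the deposited scale. Ank 48, ank 41 and WT 53 exceed their value over all genes, and ank 31 is lowest at 4.37%.

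The 2 sets of animals behaved differently. Within animals 39 to 59 (3 against 3), 930 genes were higher and 44 lower with a median difference of 0.67. Within animals 31 to 34 (2 against 2), 25 were higher and 26 lower with a median of −0.25. This second set holds both WT 33 and ank 31, so a set effect and those arrays cannot be told apart, and the difference between the sets was not tested. With the set as a block, 155 were higher and 6 lower.

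The 36 genes kept in all leave-one-out fits differed by 0.94 to 2.95 with a median of 1.52. Their difference was positive in each fit that was run, including both sets of animals (medians 0.77 and 2.04). At the thresholds 33 were also kept after centring, 33 after quantile normalization, 34 with the NP list mean as a covariate and 35 without WT 33 and ank 31, but 3 within animals 31 to 34. Since they were chosen for passing repeatedly in these arrays, these counts describe them and are not further support. Ank 31 was above the WT mean in 31 of the 36, although it was the lowest ank array in 25. In 14 of the 36, no more than 2 WT arrays were above background, so their WT level and fold are poorly measured.

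Genes of kinase and phosphatase signalling were among them. Sgk1 was at 9.12, 9.13, 6.66, 6.72 and 9.22 in WT 32, 33, 53, 55 and 59 and at 9.76, 11.23, 10.63, 11.49 and 10.78 in ank 31, 34, 39, 41 and 48. All ank arrays exceeded all WT arrays, and ank 31 was nearest to them. The difference was 2.61 ± 0.62 (SE; 6.11-fold, exact p = 0.00794), with 3 of 5 WT arrays above background. It was 1.37 within animals 31 to 34 and 3.44 within 39 to 59.

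Wee1, the kinase that holds CDK1 inactive before mitosis, was at 7.22, 6.63, 6.59, 7.15 and 7.86 in WT and 9.06, 7.58, 8.76, 9.63 and 8.74 in ank. The genotypes overlapped in ank 34 and WT 59 only, and 1 WT array was above background. The difference was 1.67 ± 0.43 (SE, exact p = 0.0159). Dusp14, a phosphatase that acts on MAP kinase pathways, separated the genotypes completely with a small difference of 1.14. Rcan1, an inhibitor of calcineurin, differed by 1.60, and Peli1, a ubiquitin ligase of innate immune signalling, by 1.73.

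Genes that handle RNA and protein formed another part. Cirbp, a cold-inducible RNA-binding protein, was at 6.45, 6.84, 5.68, 6.37 and 6.46 in WT and at 6.12, 8.86, 8.32, 9.16 and 9.12 in ank. Here 4 ank arrays stood above all WT arrays, and ank 31 lay inside the WT range. The difference was 1.96 ± 0.56 (SE, exact p = 0.0397), and 2.62 without WT 33 and ank 31. Eif3m, a subunit of the translation initiation factor eIF3, differed by 1.47 and the splicing factor Rbm17 by 1.31. Zfand2a, a stress-induced partner of the proteasome, was at 13.22, 13.64, 10.77, 12.52 and 13.75 in WT and 13.47, 15.81, 13.46, 17.33 and 16.21 in ank. Ank 31 and 39 lay within the WT range, and the difference was 2.48 ± 0.82 (SE, exact p = 0.0556).

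Transcription factors included Rela, the p65 subunit of NF-kB. It was at 12.57, 12.24, 11.04, 12.45 and 11.89 in WT and at 12.13, 14.12, 13.51, 13.72 and 13.98 in ank, and 4 of the 5 ank arrays exceeded every WT array. The difference was 1.45 ± 0.46 (SE, exact p = 0.0317). Tfdp2, the dimerisation partner of E2F factors, differed by 1.35, Zfp960 by 1.52 and the ETS repressor Erf by 0.94, the smallest of the 36. Zfp960 was one of the few with a larger difference within animals 31 to 34 (2.16) than within 39 to 59 (1.09). Pmp22, a membrane protein of peripheral myelin, differed by 2.18, Mtdh by 1.76, the aldolase Aldoc by 1.53 and the cholesteryl ester hydrolase Nceh1 by 1.61.

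Chst3, which adds sulfate to the 6 position of chondroitin, was the matrix gene among them. It was at 7.82, 6.68, 6.98, 7.03 and 7.97 in WT and at 8.16, 8.39, 8.94, 10.08 and 10.22 in ank. The groups did not overlap, with ank 31 again nearest to WT. The difference was 1.86 ± 0.49 (SE, exact p = 0.00794), with 2 WT arrays above background.

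Glucocorticoid hormones enter the cell and activate a nuclear receptor, which switches on a well-known set of genes, among them Sgk1, Tsc22d3, the metallothioneins and Fkbp5. Of 10 such genes tested, 9 were positive, 6 were higher and 0 lower at the thresholds, and the median was 1.43. Over all genes tested 72.4% were positive and 3.56% higher, with a median of 0.28. The mean of the 12 measured members was 9.0, 9.26, 8.52, 9.27 and 9.12 in WT and 9.47, 9.54, 10.7, 10.6 and 10.7 in ank, with no overlap. After centring 4 passed, after quantile normalization 3, and without WT 33 and ank 31, 5. Within animals 31 to 34 the median of the 10 genes was 0.57 and 0 passed. Within animals 39 to 59 it was 1.92 and 6 passed. The list had been described on these arrays before, so it is not independent evidence of a direction. The same list averaged 9.30 to 11.8 in the NP arrays, and the NP list mean moved with genotype as given above. With the NP list mean as a covariate the median of the 10 genes was 1.40 and 3 passed (Sgk1, Mt2 and Cebpd).

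The members did not all move. Tsc22d3 (GILZ), a glucocorticoid-induced inhibitor of NF-kB and AP-1, was at 9.79, 11.30, 8.81, 11.86 and 10.08 in WT and at 10.41, 11.71, 12.76, 12.66 and 11.91 in ank. The genotypes overlapped, and the difference of 1.52 (exact p = 0.0556) passed in 4 of 10 leave-one-out fits. Cebpd, a transcription factor of the acute phase, differed by 1.34 (exact p = 0.0794) and no longer passed without WT 33 and ank 31 (1.01). Fkbp5, a co-chaperone of the receptor and one of its classic targets, differed by 0.19 (exact p = 0.643), Klf9 by 0.48, Zbtb16 by 0.77 and Ddit4 by −0.53, and none of these passed.

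Errfi1, a feedback inhibitor of the EGF receptor, showed how strongly single arrays could set a value. It was at 10.93, 13.91, 10.19, 10.20 and 10.56 in WT and at 11.91, 10.79, 13.85, 17.60 and 16.47 in ank. WT 33 stood above 3 ank arrays, and ank 41 and 48 stood far above all others. The difference was 2.97 (exact p = 0.0794), −1.07 within animals 31 to 34 and 5.66 within 39 to 59.

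Mt2 had the largest difference of the 36. Metallothioneins are small cysteine-rich proteins that bind zinc and copper and are induced by metals and by glucocorticoids. Mt2 was at 11.01, 9.10, 10.54, 11.12 and 10.62 in WT and at 10.70, 11.56, 14.29, 14.89 and 15.70 in ank. Ank 31 lay within the WT range, ank 34 just above it and the other 3 far above. The difference was 2.95 ± 0.90 (SE; 7.73-fold, exact p = 0.0238), and 2.15 with the NP list mean as a covariate.

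Mt1, its neighbour on the chromosome, was at 15.30, 10.59, 14.32, 16.11 and 14.15 in WT and at 13.10, 15.52, 18.25, 18.33 and 18.26 in ank. Ank 39, 41 and 48 were again above all WT arrays, and WT 33 was lowest of all. The difference was 2.60 ± 1.19 (SE, exact p = 0.103). It passed in 4 of 10 leave-one-out fits, and did not pass after centring, after quantile normalization or with the NP list as a covariate (1.36).

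The promoters of Mt2 and Mt1 are shown because both genes passed the thresholds and are classic targets of the metal-sensing factor MTF1, which binds the metal response element. Both windows run from 250 bases before to 50 after the annotated start (RefSeq, GRCm38.p6, plus strand, chr8:94172368-94172667 for Mt2 and chr8:94178839-94179138 for Mt1), and capitals mark each match to the cores TGCACNC or TGCGCNC on either strand.
Mt2: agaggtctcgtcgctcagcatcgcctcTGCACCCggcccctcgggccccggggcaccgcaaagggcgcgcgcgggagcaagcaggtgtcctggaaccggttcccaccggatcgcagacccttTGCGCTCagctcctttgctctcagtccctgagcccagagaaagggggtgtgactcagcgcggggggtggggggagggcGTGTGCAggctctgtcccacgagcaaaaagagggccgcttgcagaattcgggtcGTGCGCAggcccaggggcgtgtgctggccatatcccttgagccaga
Mt1: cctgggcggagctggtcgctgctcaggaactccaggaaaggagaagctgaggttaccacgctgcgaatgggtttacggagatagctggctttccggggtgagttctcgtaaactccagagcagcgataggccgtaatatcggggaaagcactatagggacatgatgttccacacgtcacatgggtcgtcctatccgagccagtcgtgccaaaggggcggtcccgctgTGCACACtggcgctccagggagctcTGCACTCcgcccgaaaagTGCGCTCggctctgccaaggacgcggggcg
Mt2 held 4 matches and Mt1 held 3, none overlapping. A match was found in 25.7% of 32851 promoter windows of the same length, and 3 or more in 1.97%. A match describes the letters and does not show that the factor was bound.

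Immediate early genes are switched on within minutes of a stimulus, which can be a growth factor, load or the handling of tissue. All 16 tested were positive, 3 were higher at the thresholds (Fosb, Myc and Jund), and the median was 0.97. Over all genes tested 72.4% were positive and 3.56% higher, with a median of 0.28. The list mean was 8.91, 8.98, 7.27, 9.19 and 9.71 in WT and 8.45, 9.15, 10.7, 11.2 and 9.74 in ank. Ank 39 and 41 carried the list, ank 48 only just exceeded WT 59, and ank 31 and 34 lay within the WT range. Within animals 31 to 34 its median was −0.24, and within 39 to 59 it was 1.68. With the NP list mean as a covariate the median was 0.71 and 0 passed.

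Fosb, a partner in the AP-1 dimer, was at 9.50, 10.73, 7.47, 10.02 and 10.79 in WT and at 10.14, 9.35, 13.17, 16.88 and 15.94 in ank. Ank 39, 41 and 48 exceeded all WT arrays, whereas ank 31 and 34 lay among them. The difference was 3.39 ± 1.36 (SE, exact p = 0.103), −0.37 within animals 31 to 34 and 5.90 within 39 to 59. Myc, a driver of cell growth, was likewise highest in ank 41, 48 and 39, with 8.13, 9.02, 5.86, 8.13 and 7.23 in WT and 7.11, 7.77, 11.05, 16.28 and 13.92 in ank. Its difference was 3.55 (exact p = 0.119) and passed in 3 of 10 leave-one-out fits.

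Jund, the most steadily expressed of the JUN family, was the single member of the list among the 36. It was at 9.97, 9.91, 8.71, 10.36 and 9.80 in WT and at 9.40, 11.61, 11.05, 12.71 and 12.46 in ank, so that ank 31 lay among the WT arrays and the other 4 above. The difference was 1.70 ± 0.60 (SE, exact p = 0.0397), and 1.26 with the NP list mean as a covariate, where it did not pass. Egr1, with means of 12.64 and 14.98, differed by 2.34 (exact p = 0.214), and Fos by 0.56 and Dusp1 by 1.14. None of these passed.

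**Figure D4:**
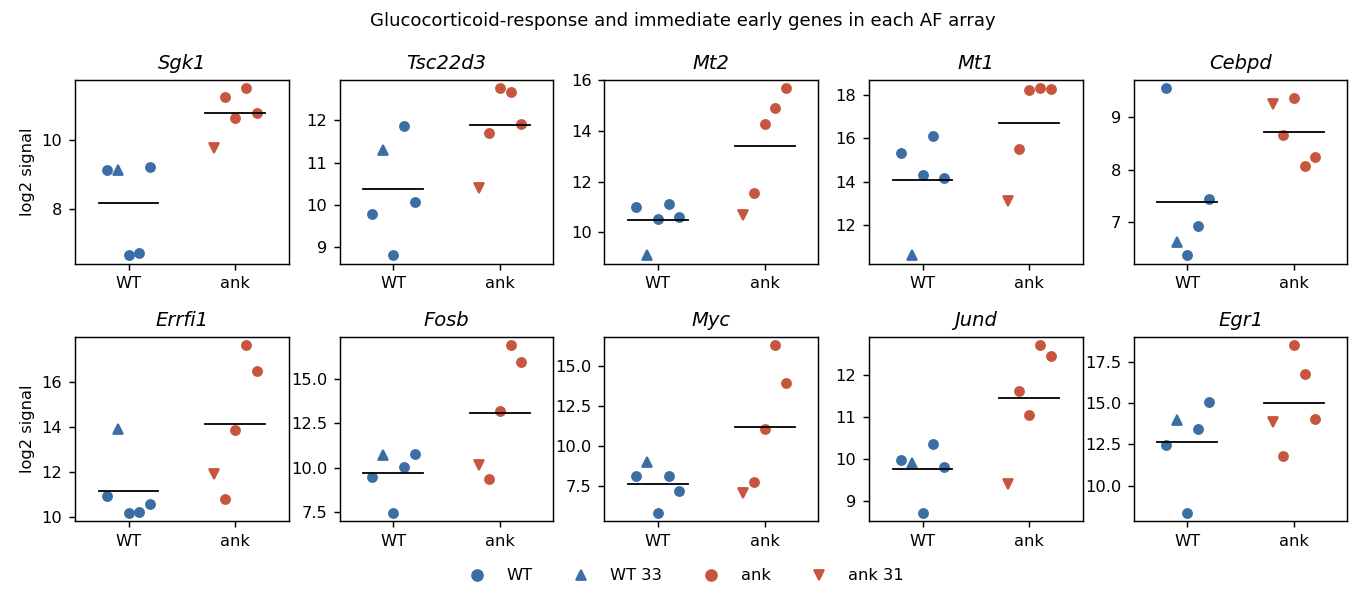
Log2 signal of genes of the glucocorticoid list (top row, and Errfi1 at the left of the bottom row) and of the immediate early list (rest of the bottom row). Points are single AF arrays, by genotype, with lines at the group means and WT 33 and ank 31 as triangles. Sgk1 separates the genotypes, whereas Fosb and Myc are high in ank 39, 41 and 48 only and Errfi1 in these and WT 33.

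Of 12 clock genes tested, 6 were positive, 2 were higher and 0 lower at the thresholds, with a median of 0.10. Among all genes tested 72.4% were positive and 3.56% higher, with a median of 0.28. Cry2, a repressor of the CLOCK-BMAL1 complex, averaged 11.11 ± 0.90 across the WT arrays and 12.61 ± 1.33 across the ank arrays (SD, n = 5). Its difference of 1.51 (exact p = 0.0794) passed in 5 of 10 leave-one-out fits, but not after centring or quantile normalization. Neither did it pass with the NP list mean (0.86) or the control AUC (1.36) as a covariate. Csnk1e, a kinase that marks PER proteins for degradation, differed by 1.26 (exact p = 0.0476). Nr1d1 and Dbp, direct targets of CLOCK and BMAL1, differed by −0.94 (exact p = 0.0556) and −0.92 (exact p = 0.159), Per1 by 0.58 and Clock by −0.14, and none of these passed. Nr1d1 passed as lower after centring (−1.21), after quantile normalization (−1.30) and with the NP list mean (−1.14) or the control AUC (−1.03) as a covariate.

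Of 8 measured genes of pyrophosphate and phosphate handling, 4 were tested and all 4 were positive, where 72.4% of all genes tested were positive. After quantile normalization 4 were positive and after centring 2. Their median was −0.73 within animals 31 to 34 and 1.65 within 39 to 59. Slc20a1, a sodium-phosphate cotransporter that brings phosphate into the cell, was at 10.23, 10.31, 8.79, 10.26 and 10.86 in WT and at 12.12, 10.21, 10.61, 12.54 and 12.04 in ank. Ank 34 and 39 lay within the WT range, and ank 31, 41 and 48 above it. The difference was 1.42 ± 0.55 (SE, exact p = 0.0714) and 1.32 without WT 33 and ank 31, where it did not pass. Xpr1, the phosphate exporter, differed by 0.25 with all arrays and by 1.46 without WT 33 and ank 31, where it passed, and Mgp, matrix Gla protein, an inhibitor of calcification, by 0.71 and 2.19, likewise. Alpl, the phosphatase that degrades pyrophosphate, was above background in WT 33 only, at 13.1, among the bone genes of that array.

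For mineral-associated genes, expression in the AF and carried-over bone cannot be told apart. Ibsp, bone sialoprotein, differed by 0.08 with all arrays and by 2.50 without WT 33 and ank 31 (exact p = 0.429). Ctsk, the collagen-degrading protease of osteoclasts, was at 17.75 in WT 33 and at 6.20 to 8.18 in the other WT arrays, against a mean of 8.61 in ank. Its difference changed from −0.31 to 2.43 without WT 33 and ank 31 (exact p = 0.0571), where it passed the thresholds. Col10a1, the collagen of hypertrophic cartilage, was at 15.73 in WT 33, and its difference changed from −0.24 to 1.08 and did not pass.

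Fewer genes were lower in ank. Cytl1, a secreted protein of cartilage, was at 17.76, 19.39, 18.41, 19.64 and 18.80 in WT and at 19.93, 17.41, 16.65, 12.09 and 13.86 in ank. Ank 31 had the highest value of all, at the ceiling, and the other 4 ank arrays lay below every WT array. The difference was −2.81 ± 1.19 (SE, exact p = 0.0952), −3.65 without WT 33 and ank 31, 0.09 within animals 31 to 34 and −4.75 within 39 to 59.

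Axl, a receptor tyrosine kinase for Gas6, was at 8.23, 11.46, 8.67, 8.81 and 8.53 in WT and at 8.37, 8.02, 7.89, 7.03 and 7.03 in ank. WT 33 was far above the rest, and ank 31 alone overlapped WT. Its difference of −1.47 (exact p = 0.0159) became −1.07 without WT 33 and ank 31 and still passed, but was −0.88 with the NP list mean as a covariate and did not. Of the 6 lower genes only Tasor passed with that covariate. The difference of Axl was −1.65 within animals 31 to 34 and −1.36 within 39 to 59.

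Tasor, a core part of the HUSH silencing complex, was at 8.56, 8.57, 7.59, 8.30 and 9.04 in WT and at 6.09, 7.40, 8.37, 6.25 and 7.46 in ank, with overlap in ank 39. The difference was −1.30 (exact p = 0.0238), and −1.01 without WT 33 and ank 31, where it did not pass. Cog6, a Golgi tethering subunit, differed by −0.85. Sh3pxd2a, a podosome scaffold, and Phkb, a regulatory subunit of phosphorylase kinase, differed by −1.15 and −1.14. Both were highest in WT 33 (10.71 and 10.81), and without it and ank 31 their differences were −0.58 and −0.54 and did not pass.

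Matrix and growth-factor genes made up part of the 38 genes lower without WT 33 and ank 31. Vcan, the large proteoglycan versican, was at 17.55, 10.26, 14.09, 16.74 and 16.67 in WT and at 17.03, 13.55, 14.74, 11.93 and 13.06 in ank. WT 33 was the lowest of all arrays and ank 31 as high as WT. The difference was −1.0 (exact p = 0.540) with all arrays and −2.94 (exact p = 0.0571) without these 2. Chad, chondroadherin, a cartilage protein that binds cells and collagen, was at 19.16, 19.14, 18.83, 19.50 and 19.22 in WT and at 19.78, 18.48, 18.64, 15.004 and 16.61 in ank. Again 4 ank arrays lay below every WT array and ank 31 above. Its difference was −1.47 (exact p = 0.127), and −2.0 without WT 33 and ank 31 (exact p = 0.0286, the smallest possible for 8 arrays). Vcan and Chad are described here for being lower in these 8 arrays, so the exact p-values of that fit are not further support.

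Angptl7, a secreted angiopoietin-like protein, differed by −2.0 (exact p = 0.159) with all arrays and −3.01 without WT 33 and ank 31. It was at 13.36, 11.72, 10.91, 15.70 and 14.85 in WT and at 13.73, 12.08, 11.12, 8.65 and 10.93 in ank, where ank 41 was lowest and the groups overlapped. Grem1, a BMP antagonist, differed by −0.59 and −2.05, and WT 33 (8.62) was its lowest array. Cilp2, of the cartilage intermediate layer family, differed by −0.67 and −1.62, and the serine protease Htra4 by −1.20 and −1.93. Of the 38 genes, 31 had a difference of 0 or above within animals 31 to 34, where 37.1% of all genes tested were positive. That set holds WT 33 and ank 31, the arrays left out when the 38 were called. Odorant, pheromone or trace amine receptor genes, which set the background, were 5 of the 38 (13.2%). They were 67 of the 4077 tested (1.64%) and 0 of the 992 higher without WT 33 and ank 31.

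**Figure D5:**
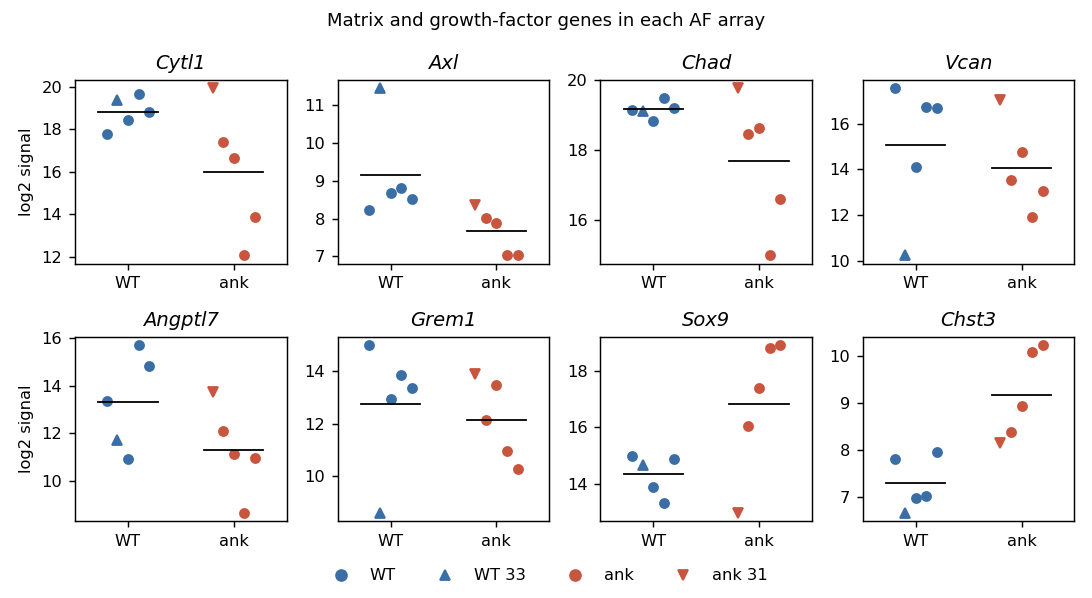
Log2 signal of 8 matrix and growth-factor genes in each AF array, by genotype, with lines at the group means and WT 33 and ank 31 as triangles. In Cytl1, Chad and Vcan ank 31 sits with the WT arrays or above them, and in Vcan and Grem1 WT 33 is the lowest array.

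Sox9, the transcription factor that drives cartilage matrix genes, was at 14.98, 14.66, 13.89, 13.34 and 14.88 in WT and at 12.99, 16.05, 17.37, 18.80 and 18.89 in ank. All ank arrays but ank 31, which was the lowest of the 10, lay above WT. The difference was 2.47 (exact p = 0.0714), −0.30 within animals 31 to 34 and 4.32 within 39 to 59, and 1.76 with the NP list mean as a covariate, where it did not pass. Of its textbook targets, Col2a1 differed by 0.19 and Hapln1 by 0.32, and Acan was within 0.05 of the ceiling in 8 of 10 arrays. Of 9 cartilage genes tested, 4 were positive and only Sox9 passed, with a median of −0.28. Among all genes tested 72.4% were positive.

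Collagen genes gave no call over the 10 arrays as deposited, where 72.4% of all genes tested were positive. Of 13 genes of fibrillar collagen and its assembly, 6 were positive and 0 passed, with a median of −0.17, and of 9 other collagen and basement membrane genes 6 were positive and 0 passed. Serpinh1, the collagen chaperone HSP47, passed as lower after centring (−1.28) and after quantile normalization (−1.24). With the control AUC as a covariate 5 of the 13 were lower, among them Col1a1 (−3.19) and Col1a2 (−1.75), and within animals 31 to 34, which hold WT 33, 4 were. Col1a1, the chief collagen of the AF, was at 14.39, 19.68, 10.86, 13.45 and 11.70 in WT and at 9.46, 12.93, 11.25, 15.09 and 10.78 in ank. WT 33, with its bone RNA, was highest and ank 31 lowest. The difference of −2.12 (exact p = 0.294) was −0.09 without these 2. Col1a2 changed likewise from −0.85 to 0.79. Dcn, decorin, was within 0.05 of the ceiling in 6 of 10 arrays, where a difference would not show, but was at 13.64 in WT 53 and 17.18 in ank 41.

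Of 20 proteoglycan and chondroitin sulfate genes, 12 were positive and 1 passed (Chst3), with a median of 0.20. Of 6 matrix proteases and inhibitors, 5 were positive and 0 passed, with a median of 0.56. Of 18 TGF-beta and BMP genes, 12 were positive and 0 passed, with a median of 0.25, and of 7 Wnt genes 4 were positive and 0 passed. The medians of the proteoglycan, TGF-beta and BMP, and Wnt (0.26) lists lay close to the 0.28 of all genes tested, of which 72.4% were positive. Other fits gave calls in these lists. Of the TGF-beta and BMP genes, Tgfb1 and Tgfbi were lower after centring and after quantile normalization, with 9 of 18 positive in each. Without WT 33 and ank 31, 3 were higher (Tgfb2, Tgfbr3 and Bmpr1a) and 1 lower (Grem1). Timp2 and Timp3 of the proteases and inhibitors, and Lrp5 and Lrp6 of the Wnt genes, were also higher in that fit. There 24.3% of all genes tested were higher. With the NP list mean as a covariate Timp3 and Tgfbr3 passed as higher.

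Stress and inflammation lists held few measurable genes, and are read against the 72.4% of all genes tested that were positive. Of 8 genes of endoplasmic reticulum stress, 6 were positive and 0 passed, and of 5 apoptosis genes 4 were positive and 0 passed. Of 15 measured cytokine genes 3 were tested, and of 9 interferon-response genes 1 was tested; none of these passed. Lcn2, an iron-binding protein of neutrophils and stressed epithelia, spread from 4.48 to 18.18 in WT and from 7.0 to 19.72 in ank, and its difference of 4.88 (exact p = 0.175) did not pass. It was the single member of 14 neutrophil and marrow genes above background in any array.

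Metabolic and housekeeping lists are read against the 72.4% of all genes tested that were positive. Of 22 genes of glycolysis and oxygen sensing, 19 were positive with a median of 0.72 and 0 passed, and with the NP list mean as a covariate the median was 0.01. These genes were higher in the NP arrays, with a list mean of 12.5 to 13.9 against 9.34 to 12.3 in the AF. Of 19 translation initiation genes, 17 were positive with a median of 0.59, and 1 passed (Eif3m). This count became 12 without WT 33 and ank 31, where 24.3% of all genes passed. Of 22 proteasome genes, 18 were positive with a median of 0.25, and 1 passed (Psmd13). Of 23 genes of oxidative phosphorylation, 17 were positive and 0 passed, with a median of 0.16. Of 22 genes of actin and adhesion, 14 were positive and 1 passed (Twf1), with a median of 0.08. After centring, 11 of the 22 proteasome, 10 of the 23 oxidative phosphorylation and 8 of the 22 actin genes were positive.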

How the data were processed

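Mouse Clariom S arrays, 1 per mouse and tissue, were run on AF and NP of 10 mice. RNA of reduced integrity was labelled and hybridised as the study's methods describe. The authors normalized the scans by sst-rma in the Transcriptome Analysis Console and deposited log2 signals, 1 per probe set. Arrays have no read depth, so signal over background limits precision. A table of the platform's annotation gave 1 symbol to 19572 of 28846 features, among them 1324 positive and 5222 negative controls, and 2634 had no name. For 55 genes with several probe sets, the one with the highest mean was used. Symbols are those of that table and can be old. The study's detection filter was replaced by the receptor-gene background.

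Genotypes were compared with limma 3.58.1 in R 4.3.3 (lmFit, eBayes, Benjamini-Hochberg over 4077 genes), on the 10 AF arrays without covariates. The procedure was tested on simulated data. Alternatives were centring, quantile normalization, other filters, covariates, array weights, all 20 arrays, an ordinary t-test with pooled variance and leaving out arrays. After seeing the data, fits were added without WT 33 and ank 31 with centring or the NP covariate, and within each set of animals. Exact p-values and figures were made in Python 3.11.15 (numpy 2.4.6, matplotlib 3.10.9).

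Members, lists and tests were chosen with earlier results of these data known. Named were genes kept in all leave-one-out fits (15 per direction), the 10 per direction with the smallest p without WT 33 and ank 31, every lower gene, list members at the thresholds or with the highest mean, the 3 highest members of each tissue list and the genes of largest excess in WT 33. Zfand2a, Peli1, Rcan1, Mtdh, Rbm17, Znrf2, Erf and the list members that did not pass were named after their values were seen.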

Additional observations from a re-analysis of the deposited data

Results flagged for a closer look

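In groups of 5 arrays, a value was picked out when its gap to the nearest of the others took up more of the group's range than Dixon's 95% critical value allows. Of 162 groups examined, 21 were picked out, and chance alone picks out about 1 in 20 groups. That rate is no yardstick here, because many of the genes and lists examined were chosen for their level in WT 33 or for their difference. WT 33 accounted for 17 of them. Its list means were the highest of the WT arrays for hypertrophic chondrocytes (14.8), osteoblasts and osteocytes (12.2), osteoclasts (12.3), macrophages (8.18), skeletal muscle (12.3), endothelium (7.62) and adipocytes (8.16).

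Among single genes, WT 33 was also the highest WT array in the muscle actin Acta1 (18.23), in Axl (11.46), Calcoco1 (10.65), Errfi1 (13.91), Peli1 (8.04), Phkb (10.81) and Sh3pxd2a (10.71), in Col10a1 (15.73) and in Ctsk (17.75). It was the lowest WT array in Mt2 (9.10). Zfp960 was highest in WT 55 (10.27) among WT, below all ank arrays. Decorin, Dcn, was lowest in WT 53 (13.64) among WT and in ank 41 (17.18) among ank, where the other 4 arrays of the genotype lay at 18.99 or above. Cirbp was lowest in ank 31 (6.12) among ank, at the level of the WT arrays.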

How the results depend on the processing

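No gene had an adjusted p under 0.05 in any fit that was run, and the smallest adjusted p ran from 0.0558 to 0.9999. The count of higher genes, 145, was 61 to 603 when 1 array was left out, and that of lower genes, 6, was 3 to 15. It was 992 higher and 38 lower without WT 33 and ank 31, 407 and 262 with those 8 arrays centred, and 495 and 32 with the NP list mean as a covariate in them. Within animals 31 to 34 it was 25 and 26, and within 39 to 59 it was 930 and 44. Centring all arrays gave 90 and 44, quantile normalization 86 and 41, the NP list mean as a covariate 91 and 13, array weights 540 and 22, and all 20 arrays in the fit 245 and 13. A background in at least 8 arrays gave 88 higher genes, the antigenomic background 330 and 108, and no filter 344 and 144. The control AUC as a covariate gave 53 lower genes and an ordinary t-test 3. Genes without overlap between genotypes, 14, were 22 to 198 when 1 array was left out, 107 with no filter and 8 with the stricter one. The difference of Ctsk, −0.31 with all arrays, was −0.99 to 1.90 when 1 array was left out and 2.43 without both arrays, and that of Col10a1, −0.24, was −1.03 to 1.51. Both highest values were those without WT 33. The cause of these changes was not tested beyond the fewer or more arrays and genes in each fit. Of 42 genes named at the thresholds, under 18 settings each (the 10 left-out arrays, both arrays, both scalings, the covariates, the set block and array weights), 21 kept the call throughout, 21 lost it under at least 1 setting and 0 changed sign. Some of the 42 were named because they passed in all 10 leave-one-out fits, which are among the 18. In each of those 10 fits all 151 genes at the thresholds, named or not, also kept their sign. These counts therefore describe the named genes and are not further support. The fits within each set of animals are not among the 18: within animals 31 to 34, 6 of the 42 had the opposite sign (Cytl1, Errfi1, Fosb, Myc, Sox9 and Twf1). No paired analysis was possible because WT and ank mice share no number. With 5 arrays per genotype, ank 31 with 1781 genes above background and the ceiling of the signals limit what can be seen.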
